A study of Arabidopsis thaliana with 36 samples.

Results

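Superoxide dismutases turn superoxide into hydrogen peroxide and oxygen, and plants hold them in 3 metal classes. The Arabidopsis genes described here are the copper/zinc enzymes CSD1, CSD2 and CSD3, the iron enzymes FSD1, FSD2 and FSD3, the manganese enzyme MSD1, and CCS, the chaperone that loads copper into the copper/zinc enzymes. On the TAIR10.1 annotation, CSD1 (AT1G08830) lies at chr1:2827060-2829315 on the plus strand, CSD2 (AT2G28190) at chr2:12014412-12016569 (plus), CSD3 (AT5G18100) at chr5:5987187-5988885 (plus), FSD1 (AT4G25100) at chr4:12884300-12887011 (minus), FSD2 (AT5G51100) at chr5:20773235-20775739 (minus), FSD3 (AT5G23310) at chr5:7850444-7852534 (plus), MSD1 (AT3G10920) at chr3:3417940-3419892 (plus) and CCS (AT1G12520) at chr1:4267074-4268982 (minus). They were taken by name and by no cutoff on a measured value, but with earlier results of these data known. They make up 8 of the 33602 genes in the count table. All 8 passed the filter on low counts, as did 20263 genes in all, and the lowest count of any of the 8 in any library was 158, for CSD3.

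The rosettes came from Arabidopsis thaliana accessions Col-0, known as intermediate in freezing tolerance, and N14, known as cold tolerant. Each accession was sampled in 6 conditions with 3 libraries each, from 3 independent experiments, which makes 36 libraries in 12 groups. The conditions were a 28-day control (C28), a first cold of 3 days at 4 °C given from day 28 (C28P3), the same plants after a lag of 7 days back at 20 °C (C28P3L7), those plants after a second cold of 3 days (C28P3L7T3), a 35-day control (C35), and a first cold given from day 35 (C35P3). C28P3L7 and C35P3 plants were 38 days old at sampling and C28P3L7T3 plants 41 days old. Cold came with 90 µE of light against at least 200 µE in the warm phase around it, so temperature and light changed together and their effects cannot be told apart. Each library is a pool of 5 replicates. The labels give 15 rosettes for C28 and C28P3 and 4 for the other conditions, without saying whether per replicate or per pool.

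As background, CSD1 acts in the cytosol, CSD2 in the chloroplast stroma, CSD3 in peroxisomes and MSD1 in mitochondria. FSD1 is found in plastids, cytosol and nucleus, while FSD2 and FSD3 act together at chloroplast nucleoids, where the plastid genome is transcribed. When copper is scarce, the transcription factor SPL7 binds GTAC motifs and raises copper uptake genes, FSD1 and miR398. This microRNA in turn lowers CSD1, CSD2 and CCS mRNA, which spares copper for plastocyanin, so FSD1 and CSD2 are known as opposite read-outs of copper supply.

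The miR398 pairing sites are shown because they separate CSD1, CSD2 and CCS from the other members. The sequences are from the RefSeq TAIR10.1 genome, which is Col-0; N14 sequence was not used here. The mature miR398 strands are given first, with the seed (bases 2 to 8) in capitals. They lie at chr2:1041012-1041032 (miR398a), chr5:4691107-4691127 (miR398b) and chr5:4694778-4694798 (miR398c), all on the plus strand, and share their seed.
miR398a-3p: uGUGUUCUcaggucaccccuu
miR398b-3p and miR398c-3p: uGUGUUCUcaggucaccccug
The best pairing stretches in the transcripts follow, with bases in Watson-Crick pairs in capitals.
CSD1: AAGGGGTttCCTGAGAtCACA
CSD2: tgcGGGTGACCTGgGaAACAtA
CCS: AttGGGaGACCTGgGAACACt
COX5B-1: AAGGtGTGACCTGAGAAtCACA
The CSD1 stretch lies in the 5′ UTR at chr1:2827177-2827685 (plus strand, interrupted by an intron). It forms 18 Watson-Crick pairs. The CSD2 stretch lies in the coding sequence at chr2:12015572-12015593 (plus strand) and forms 16. The CCS stretch lies in the coding sequence at chr1:4267521-4267541 (minus strand) and also forms 16. COX5B-1, a subunit of mitochondrial cytochrome c oxidase and a known miR398 target, has its stretch in the 5′ UTR at chr3:5299204-5299225 (plus strand) with 20. Scored with 1 point for a mismatch or bulge and 0.5 for a G:U pair, these 4 stretches had penalties of 3.0, 4.0, 4.5 and 2.0, in the order listed. The best stretch in the other 5 members had penalties between 5.5, in FSD1, and 7.0.

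The FSD1 promoter is shown because FSD1 is the member with the widest differences between the accessions and carries the SPL7 core motif GTAC (in capitals, at −145 from the annotated start). The 250 bases before the start, on the minus strand at chr4:12887012-12887261, read as follows.
FSD1 promoter: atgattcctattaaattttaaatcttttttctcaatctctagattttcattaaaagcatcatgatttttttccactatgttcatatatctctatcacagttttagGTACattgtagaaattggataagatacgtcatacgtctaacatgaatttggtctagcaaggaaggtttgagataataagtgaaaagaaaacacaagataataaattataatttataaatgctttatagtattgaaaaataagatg
GTAC, which reads the same on both strands, occurred in 34.3% of 27443 promoter windows of this length. It occurred 2 times before CSD1 (at −11 and −7), 1 time before CSD3, 1 time before CCS, and not in the windows of CSD2, FSD2, FSD3 and MSD1. The cold-response core CCGAC, searched on both strands, was found in 11.97% of windows and among the members before FSD3. The evening element AAATATCT (4.79% of windows, both strands) and the G-box CACGTG (6.49%, the same on both strands) were found before none of the 8.

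Library totals lay between 17861514 and 31046237 counts. The defining leaf markers RBCS1A, LHCB1.1 and CA1 were present in every group, and their summed level ran from 19270 to 52780 CPM, the count scaled to library size. In the first cold at 28 days that sum was lower: in Col-0 it went from 34370-48950 CPM in C28 to 22220-30700 CPM in C28P3, and in N14 from 44860-48010 to 19270-28560 CPM. In N14 it was also lower, without overlap, at 35 days (43380-52780 and 29090-35450 CPM) and in the second cold (40330-47370 and 27740-36150 CPM). In Col-0 the libraries overlapped at 35 days (37350-48860 and 36090-38150 CPM) and in the second cold (32290-45220 and 32470-45370 CPM). The summed level of 3 root markers lay between 0.687 and 133 CPM, with 47.7-133 CPM in Col-0 C28 against 4.3-15.9 CPM in Col-0 C28P3; 1 of the 3 was at 0 in 3 groups. The 5 floral organ markers summed to 6.22-12.9 CPM in the 4 Col-0 groups of 35 days or older and to at most 1.18 CPM in the other groups. The part of these differences in the results was not tested. In whole rosettes, fewer cells of a type and less RNA per cell cannot be told apart.

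Levels between genes are given as CPM per kilobase of exon, and levels of the same gene between groups as CPM. CSD2 mRNA was the most abundant of the 8 and CSD1 the next in all 12 groups, although their libraries overlapped in N14 at C28, C28P3 and C28P3L7T3. In Col-0 C28, CSD2 stood at 684.1 ± 232 CPM per kilobase (SD, n = 3), CSD1 at 425.6 ± 68.8, FSD1 at 280.7 ± 47.8, MSD1 at 179.3 ± 3.32 and CCS at 82.9 ± 18.9. CSD3 at 41.1 ± 4.18 and FSD3 at 33.8 ± 9.14 overlapped, and FSD2 was lowest at 18.2 ± 3.16. FSD2 was the lowest member in all 6 warm groups, and CSD3 in all 6 cold groups, with 10.3 to 15.7 CPM per kilobase.

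MSD1 was the steadiest of the 8. Its highest library, at 296.0 CPM, stood 1.56 times above its lowest, at 189.9 CPM. FSD1 varied most, with an 11.8-fold range from 42.5 to 499.6 CPM. The ranges of the other 6 lay between 3.32-fold, for CSD1, and 5.64-fold, for CSD3.

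**Figure D1:**
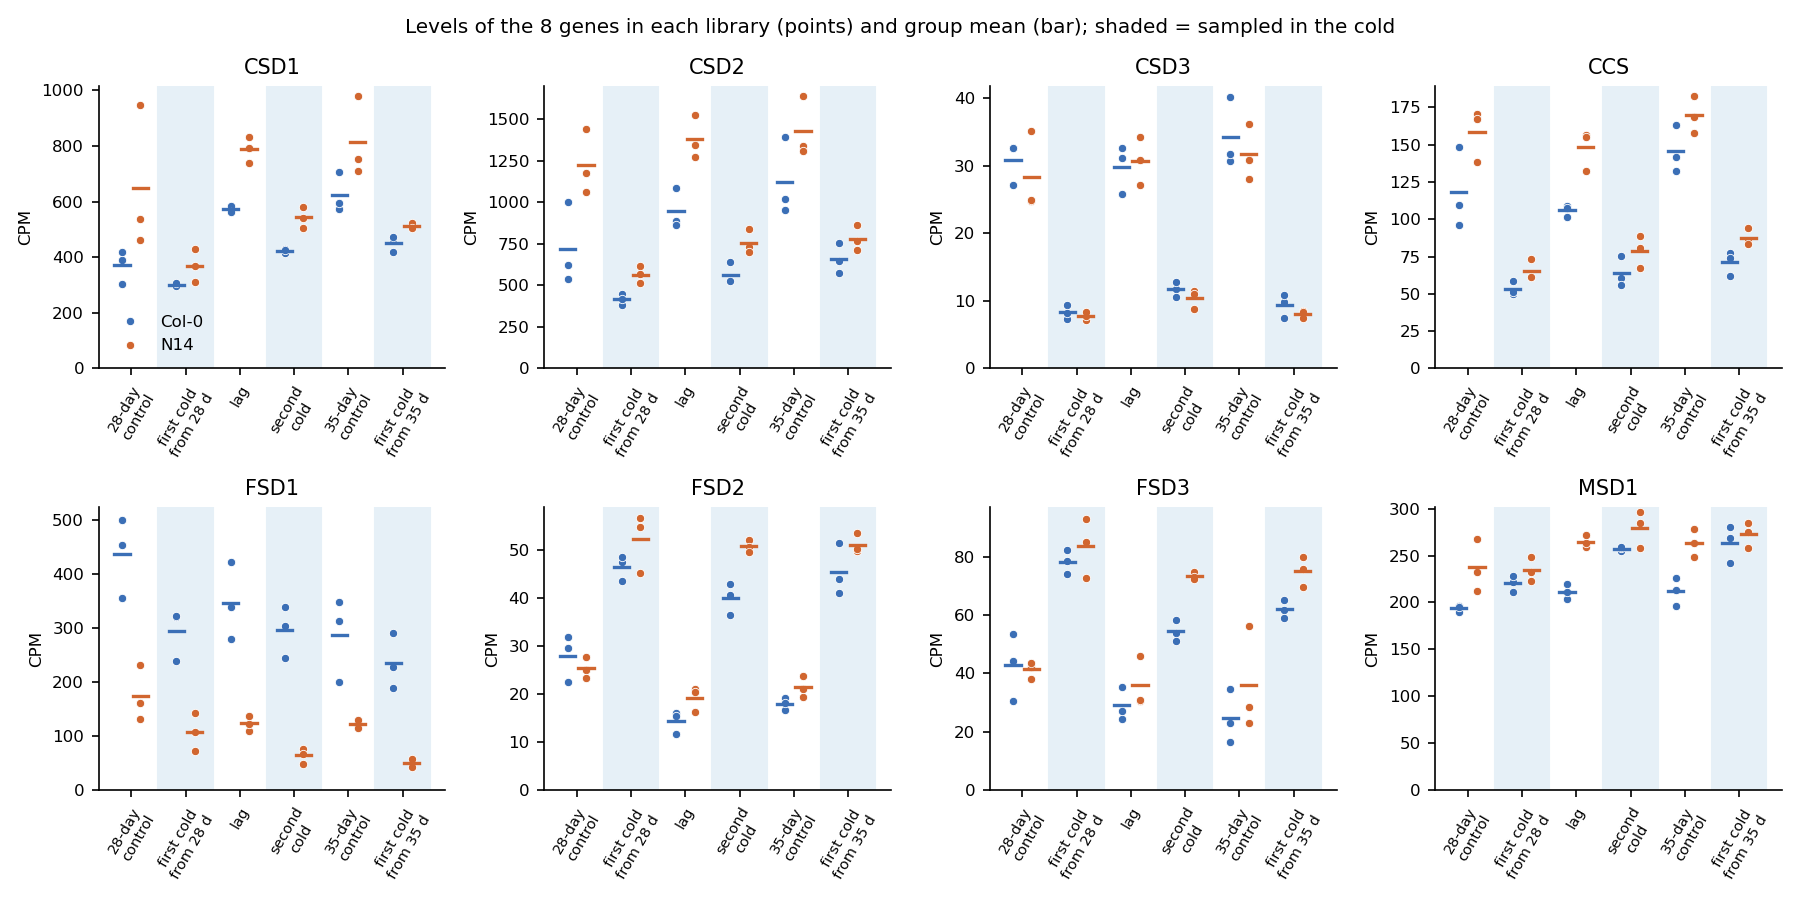
Level of each of the 8 genes (CPM, linear axis) in every library of the 12 groups, with points for libraries and bars for group means. CSD3 and CCS are lower and FSD2 and FSD3 higher in every cold group than in its warm control, and N14 libraries lie below Col-0 libraries for FSD1 in all 6 conditions.

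The cold comparisons ask how each gene differs after 3 days of cold from the warm plants before it: C28P3 against C28, C35P3 against C35, and C28P3L7T3 against C28P3L7. The cold plants were also older at sampling (31 against 28, 38 against 35 and 41 against 38 days), so age changed along with the cold. Of the 8 genes, 3 fell in all 6 of these comparisons (CSD2, CSD3 and CCS) and 2 rose in all 6 (FSD2 and FSD3). CSD1, FSD1 and MSD1 passed the test in some of them. The share of all genes called the same way in all 6 is not given here, so these counts are a description. In Col-0, 2 members rose and 4 fell in the first cold at 28 days, where 54.7% of all tested genes were called, 26.7% higher and 28.0% lower, at an adjusted p under 0.05 (edgeR quasi-likelihood test, Benjamini-Hochberg over 20263 genes). At 35 days 3 rose and 4 fell, where 51.8% of all genes were called (26.7% higher, 25.2% lower). In the second cold 3 rose and 4 fell, where 40.2% were called (21.6% and 18.7%). In N14, 2 rose and 5 fell each time, where 56.8% of all genes were called at 28 days (27.6% higher, 29.2% lower), 54.0% at 35 days (25.0% and 29.0%) and 46.6% in the second cold (22.4% and 24.2%). The median log2 change of the 8 in the first cold at 28 days in Col-0 was −0.44, and that of all tested genes −0.03.

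CSD3, the peroxisomal copper/zinc enzyme, fell furthest. In Col-0 its 3 C28 libraries held 32.6, 32.7 and 27.2 CPM and its C28P3 libraries 9.3, 7.3 and 8.3 CPM. In N14 the same groups held 35.2, 24.8 and 25.0 CPM and 7.1, 7.8 and 8.4 CPM. All cold libraries lay below all warm ones in both accessions. The log2 change was −1.89 ± 0.164 (SE) in Col-0 and −1.87 ± 0.164 in N14, both with an adjusted p of 6e-10 by edgeR's test. At 35 days the changes were −1.86 ± 0.164 and −1.96 ± 0.165. In the second cold they were −1.34 ± 0.161 in Col-0 and −1.56 ± 0.162 in N14, from 29.8 to 11.8 CPM and from 30.8 to 10.5 CPM. CSD3 overlaps 2 annotated genes on the opposite strand, and no source used here states whether reads were assigned by strand. Its counts in the BWA table were 67.8% to 94.6% of those in the STAR table in Col-0 (median 87.4%) and 70.0% to 93.2% in N14 (median 85.2%), and the CLC and RSEM tables were alike. With the BWA table its log2 change in the first cold at 28 days in Col-0 was −2.17, the furthest of the 11 other settings, and over these settings it was called in all 6 cold comparisons.

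CCS, the copper chaperone, fell in all 6 comparisons as well. Col-0 libraries held 109.8, 148.3 and 96.4 CPM in C28 and 49.6, 51.1 and 59.0 CPM in C28P3. N14 libraries held 170.8, 167.1 and 138.4 CPM and then 61.4, 73.4 and 61.2 CPM. The warm and cold libraries did not overlap in any of the 6 comparisons. CCS fell by 1.15 ± 0.147 on the log2 scale in Col-0 (edgeR adjusted p = 2.6e-07) and by 1.28 ± 0.147 in N14 (4.1e-08). The changes were −1.03 and −0.95 at 35 days and −0.73 and −0.91 in the second cold, in Col-0 and N14.

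CSD2, the chloroplast copper/zinc enzyme, is the most abundant member and fell by less. Col-0 libraries held 624.0, 998.7 and 538.4 CPM in C28 and 380.4, 448.9 and 416.0 CPM in C28P3. N14 libraries held 1439, 1174 and 1060 CPM and then 511.6, 614.7 and 569.0 CPM. Every cold library lay below every warm one, and C28 replicate 2 of Col-0 stood well above the other two. The log2 change was −0.80 ± 0.181 in Col-0 (edgeR adjusted p = 0.00053) and −1.12 ± 0.182 in N14 (8.6e-06). Without that Col-0 library the first value was −0.49 ± 0.168 (adjusted p = 0.019). The changes lay between −0.87 and −0.74 at 35 days and in the second cold, with no overlap of libraries in any.

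CSD1, the cytosolic copper/zinc enzyme, fell in 5 of the 6 comparisons. In Col-0 C28 its libraries held 390.5, 419.8 and 304.3 CPM and in C28P3 299.0, 295.7 and 308.4 CPM. These groups overlapped, and the log2 change of −0.30 ± 0.174 did not pass the test (edgeR adjusted p = 0.14). In N14 it held 949.1, 461.7 and 537.7 CPM in C28 and 429.2, 310.8 and 367.3 CPM in C28P3, with no overlap but a wide spread among the controls. Here it fell by 0.82 ± 0.175 on the log2 scale (adjusted p = 0.00027), and by 0.44 ± 0.141 without the highest control library (adjusted p = 0.012). The changes at 35 days were −0.47 in Col-0 (adjusted p = 0.026) and −0.67 in N14 (0.0021), and in the second cold −0.44 (0.045) and −0.54 (0.013). The Col-0 call at 35 days was lost without C35 replicate 2 (adjusted p = 0.12) or C35P3 replicate 3 (0.094). The Col-0 call in the second cold was lost when any of the 6 libraries was left out (0.071 to 0.11), and the N14 one without C28P3L7T3 replicate 2 (0.055). CSD1 overlaps the gene AT1G08840 on the opposite strand.

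The plastid iron enzymes FSD2 and FSD3 moved the other way. FSD2 libraries held 31.9, 22.6 and 29.6 CPM in Col-0 C28 and 47.6, 43.6 and 48.5 CPM in C28P3. N14 libraries held 27.8, 25.0 and 23.3 CPM and then 45.3, 56.6 and 54.7 CPM. Warm and cold libraries did not overlap in any of the 6 comparisons. The log2 change was 0.73 ± 0.136 in Col-0 (edgeR adjusted p = 5.5e-05) and 1.04 ± 0.137 in N14 (3.5e-07). It was 1.34 and 1.26 at 35 days and 1.47 and 1.40 in the second cold, from 14.4 to 40.1 CPM in Col-0 and 19.3 to 50.8 CPM in N14. FSD3 held 44.3, 30.5 and 53.4 CPM in Col-0 C28 and 82.2, 73.9 and 78.4 CPM in C28P3, also without overlap. It rose by 0.87 ± 0.246 in Col-0 (edgeR adjusted p = 0.0039) and by 1.02 ± 0.247 in N14 (0.00096) on the log2 scale. In the other 4 cold comparisons it rose by between 0.91 and 1.33, each without overlap.

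FSD1, the iron enzyme known to replace CSD2 when copper is scarce, did not follow FSD2 and FSD3. In Col-0 it held 354.3, 453.8 and 499.6 CPM in C28 and 238.3, 320.0 and 322.6 CPM in C28P3. In N14 it held 160.9, 130.7 and 231.9 CPM and then 71.4, 107.1 and 142.6 CPM. The Col-0 groups did not overlap, and the N14 groups did. The log2 change was −0.57 ± 0.243 in Col-0 (edgeR adjusted p = 0.048) and −0.70 ± 0.244 in N14 (0.015). Both calls were fragile: the Col-0 one was lost with 6 other settings (adjusted p 0.050 to 0.067) and with 5 of 6 libraries left out in turn (up to 0.18). The N14 one was lost in a fit to those groups alone (0.079) and without C28P3 replicate 1 (0.12) or C28 replicate 3 (−0.44, 0.15).

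At 35 days FSD1 fell in N14 from 121.4, 128.9 and 114.8 CPM to 49.6, 57.9 and 42.5 CPM, a log2 change of −1.28 ± 0.247 (edgeR adjusted p = 9.1e-05) without overlap. In Col-0 it went from 200.0, 312.8 and 348.4 CPM to 290.6, 189.0 and 227.4 CPM, with overlap and a log2 change of −0.28 (0.34). In the second cold it fell in N14 by 0.95 ± 0.245 on the log2 scale (0.0025), while the Col-0 value was −0.23 (0.47). The difference between the accessions' changes was −0.998 ± 0.344 at 35 days (adjusted p = 0.30) and −0.71 ± 0.343 in the second cold (0.59), so neither passed the test of the difference. Across the 3 cold treatments no member passed that test with edgeR, where 0.301%, 0.266% and 0.262% of all genes did. At an unadjusted p under 0.05 (edgeR) there was 1 member in each, of 1436, 1670 and 1673 genes (7.09%, 8.24% and 8.26% of those tested). DESeq2 called 0 members.

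MSD1, the mitochondrial manganese enzyme, moved little. It rose in Col-0 at 35 days, from 196.6, 226.1 and 213.0 CPM to 268.3, 280.6 and 242.5 CPM, a log2 change of 0.32 ± 0.0924 (edgeR adjusted p = 0.0055). It rose in the second cold in Col-0 as well, by 0.28 ± 0.0924 (0.015). Warm and cold libraries did not overlap in either, and both calls were lost in a fit to only the groups compared (0.12 and 0.10). The second was also lost without C28P3L7 replicate 2 (0.063) or C28P3L7T3 replicate 3 (0.052). The other Col-0 value was 0.18 (0.091), and the 3 N14 values lay between −0.02 and 0.08.

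**Figure D2:**
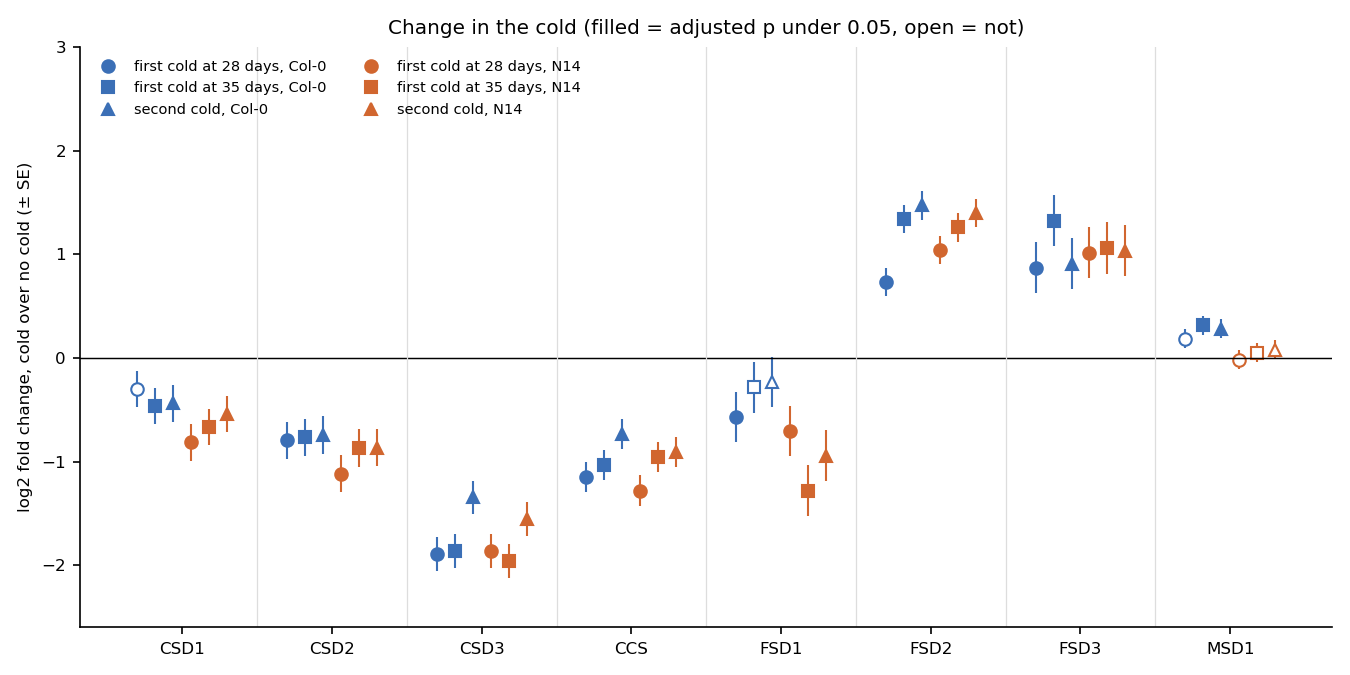
Log2 change of each of the 8 genes in the 6 cold comparisons, with bars of 1 SE and filled points for an adjusted p under 0.05. CSD3 lies between −1.96 and −1.34, FSD2 between 0.73 and 1.47, and MSD1 between −0.02 and 0.32.

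Summed per kilobase over the 7 enzymes, the mRNA of the copper/zinc class took a smaller share in the cold. In Col-0 it went from 68.6 ± 6.56% (SD, n = 3) in C28 to 60.8 ± 0.991% in C28P3, and in N14 from 83.3 ± 3.09% to 71.6 ± 2.19%. At 35 days it went from 81.5% to 70.9% in Col-0 and from 86.4% to 78.0% in N14. From the lag to the second cold it went from 78.0% to 67.6% and from 86.0% to 77.6%. The iron share in Col-0 was 20.4 ± 5.10% in C28 and 22.7 ± 1.14% in C28P3, with C28 libraries between 16.7% and 26.2%, and in N14 it was 7.15 ± 2.21% and 12.4 ± 2.17%. The summed level of the 7 was 1663 ± 282 CPM per kilobase in Col-0 C28 and 1235 ± 64.0 in C28P3, and in N14 2325 ± 501 and 1355 ± 35.6. These shares are a description and were not tested.

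**Figure D3:**
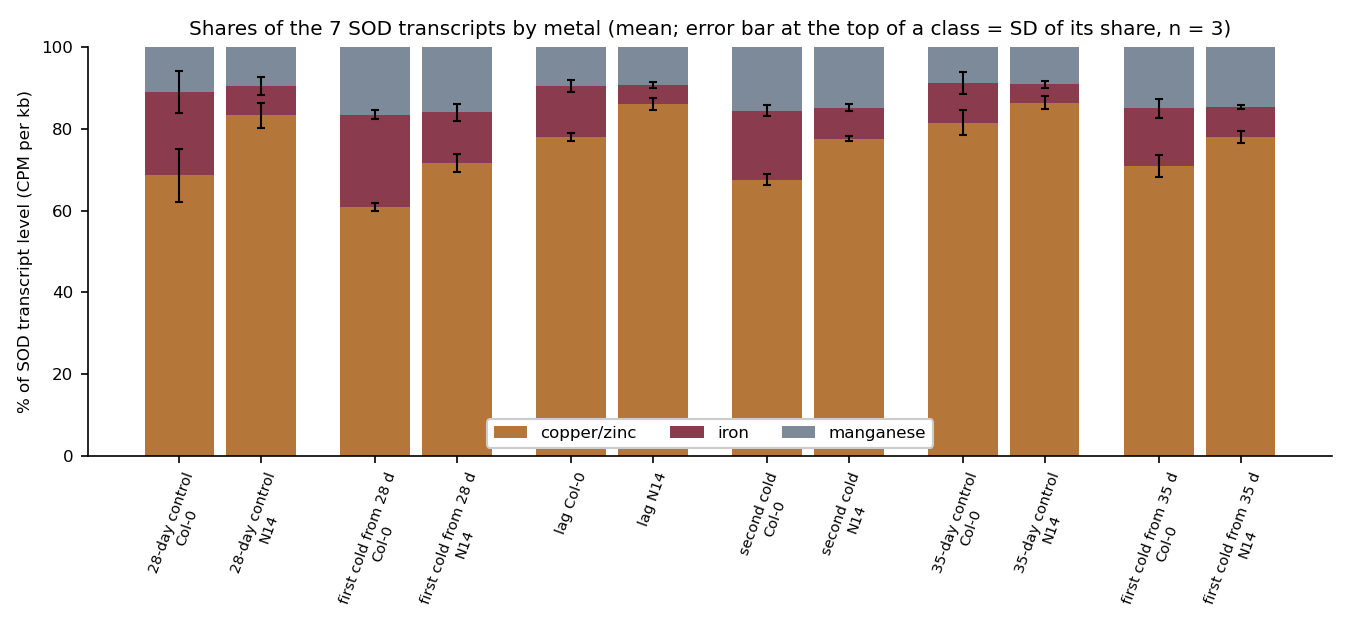
Share (percent) of the summed level per kilobase of the 7 superoxide dismutases held by the copper/zinc, iron and manganese enzymes in each of the 12 groups, as group means. The copper/zinc share ranges from 60.8% in Col-0 C28P3 to 86.4% in N14 C35, and the iron share is smaller in N14 than in Col-0 in each condition.

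The lag compares plants after 7 days back at 20 °C with those at the end of the first cold. These were 38 and 31 days old and had 4 and 15 rosettes on their labels, so age, pool and the return to warmth cannot be told apart. Against the end of the first cold, 4 members rose (CSD1, CSD2, CSD3 and CCS) and 2 fell (FSD2 and FSD3) in each accession. In Col-0, 56.4% of all genes were called (28.2% higher, 28.2% lower), and in N14 57.7% (29.9% and 27.8%). CSD3 rose by 1.84 ± 0.164 in Col-0 and 1.99 ± 0.165 in N14 on the log2 scale, to 25.8, 31.1 and 32.7 CPM in Col-0 and 27.2, 30.8 and 34.2 CPM in N14. CSD1 in Col-0 rose by 0.93 ± 0.175 from 301.0 to 574.6 CPM, above its 371.5 CPM in C28. FSD2 fell by 1.69 ± 0.14 and 1.44 ± 0.139. FSD1 and MSD1 did not pass the test here, with values of 0.24 and −0.06 in Col-0 and 0.20 and 0.17 in N14.

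Set against the 35-day control, no member and 0% of all genes were called after the lag in either accession by edgeR. At an unadjusted p under 0.05 (edgeR) there were 2 members among 670 genes in Col-0, 3.31% of those tested. In N14 there were 0 members among 919 genes (4.54%). DESeq2 called 2 and 56 genes but no member. The N14 count over all genes was 113 without C35 replicate 2 and 179 without C35 replicate 3. These plants were 38 and 35 days old, so age and the past cold cannot be told apart in this comparison. The members at an unadjusted p under 0.05 were CCS and FSD2. CCS held 101.4, 109.1 and 107.8 CPM after the lag in Col-0 and 141.7, 163.0 and 132.5 CPM in the control. The groups did not overlap, and the log2 value was −0.46 ± 0.145 (edgeR adjusted p = 0.98). FSD2 held 16.1, 15.5 and 11.8 CPM against 16.7, 19.2 and 18.1 CPM, also without overlap, at −0.32 ± 0.138 (edgeR adjusted p = 0.98). The share of all genes without overlap in this comparison is not given here. The 8 values in N14 lay between −0.20 and 0.02. The difference between the accessions in this comparison was called by edgeR for no member and 0% of genes. At an unadjusted p under 0.05 (edgeR) there were 0 members among 622 genes (3.07%), and DESeq2 called 1 gene.

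The second cold against the first cold at 35 days asks whether plants that had been cold before differ at the end of a cold treatment. These plants were 41 and 38 days old, so age and the past cold cannot be told apart here. No member was called in either accession by edgeR, with 0% of all genes in Col-0 and 0.00494%, which is 1 gene, in N14. At an unadjusted p under 0.05 (edgeR) there were 0 members among 937 genes in Col-0, 4.62% of those tested. In N14 there was 1 member among 1765 genes (8.71%). DESeq2 called 1 and 217 genes but no member. The N14 count over all genes was 532 in a fit to those groups alone and 177 without C28P3L7T3 replicate 2. CSD3 was that member: in N14 it held 11.5, 8.9 and 11 CPM after the second cold and 8.5, 8.4 and 7.4 CPM after the first. These CSD3 libraries did not overlap, and the share of all genes without overlap is not given here. Its log2 value was 0.37 ± 0.162 in N14 (edgeR adjusted p = 0.47) and 0.32 ± 0.161 in Col-0 (1.0), where the libraries overlapped.

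Between the 28-day and 35-day controls, 2 members rose and 1 fell in Col-0, where 3.41% of all genes were called (1.33% higher, 2.07% lower). CSD1 rose from 390.5, 419.8 and 304.3 CPM to 573.2, 705.8 and 595.3 CPM, a log2 change of 0.75 ± 0.175 (edgeR adjusted p = 0.019) without overlap. CSD2 rose by 0.64 ± 0.180 (0.045) with overlap, and FSD2 fell by 0.64 ± 0.137 (0.013) without. None of these 3 was called in a fit to only the groups compared (adjusted p = 0.17, 0.33 and 0.25). Leaving out C28 replicate 1 or 3 also ended all 3 calls (0.068 to 0.26), C35 replicate 2 those of CSD1 (0.10) and CSD2 (0.25), and C35 replicate 1 those of CSD2 (0.068) and FSD2 (0.055). FSD3 had the widest value of the 8, −0.79 ± 0.247 (0.067), with overlap, and was called by DESeq2 (adjusted p = 0.040), with the replicate block (0.043), and without C28 replicate 2 (0.023) or C35 replicate 3 (0.022). Without C28 replicate 2, CCS was called as well (0.50, 0.040). In N14 no member was called by edgeR (0.0197% of all genes). There 1 member, FSD1 at −0.52 ± 0.243, was among the 1875 genes (9.25% of those tested) at an unadjusted p under 0.05 (edgeR). DESeq2 called 144 genes in all but no member. The pools also differ in the number of rosettes between these ages.

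FSD1 mRNA was lower in N14 than in Col-0 in all 6 conditions, and no N14 library reached the lowest Col-0 library of its condition. Over all 18 libraries an accession, N14 held 42.5 to 231.9 CPM with a median of 111.9, and Col-0 held 189.0 to 499.6 CPM with a median of 316.4. The log2 difference was −1.32 ± 0.246 at C28 (edgeR adjusted p = 0.00026), −1.46 ± 0.247 at C28P3 (7.7e-05), −1.49 ± 0.247 after the lag (5.2e-05) and −1.24 ± 0.246 at C35 (0.00054). It was −2.24 ± 0.254 at C35P3 (1e-07) and −2.21 ± 0.253 at C28P3L7T3 (1.2e-07). In those last conditions the N14 libraries held 49.6, 57.9 and 42.5 CPM and 48.4, 76.7 and 66.9 CPM, against 290.6, 189.0 and 227.4 CPM and 244.4, 303.6 and 338.2 CPM in Col-0. N14 FSD1 counts in the TopHat, BWA and RSEM tables were 84.5% to 84.6% of the STAR counts at the median, and 104% in the CLC, kallisto and Salmon tables, while the Col-0 medians were 98.5% to 100%. With any of the 6 tables the 6 differences were called, and over all 11 other settings they lay between −1.71 and −1.19 in the first 4 conditions and between −2.44 and −2.13 in the last. Reads of both accessions were counted against the Col-0 reference, and the part of sequence differences in N14 was not tested beyond these tables.

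The other members were less different between the accessions. In the 28-day controls 3 members were called higher and 1 lower in N14, where 12.3% of all genes were called (6.02% higher, 6.32% lower). After the lag 4 were higher and 1 lower, where 15.7% were called (8.62% and 7.07%), and in the 35-day controls 1 and 1, where 14.0% were called (7.6% and 6.41%). FSD1 was the 1 lower member each time. At the end of the cold treatments FSD1 was the only member called by edgeR, where 11.1% of all genes were called at C28P3 (4.97% higher, 6.09% lower), 14.1% at C35P3 (5.62% and 8.48%) and 14.0% at C28P3L7T3 (5.77% and 8.18%). A fit to only the groups compared also called higher levels in N14 of CSD1 (adjusted p = 0.028), CSD2 (0.047), FSD2 (0.042) and FSD3 (0.013) at C28P3L7T3. At C35P3 it added higher levels of CCS (0.042) and FSD3 (0.027). There it called 5575 of all genes, against 2856 in the main fit, so the added calls at C35P3 came with more calls over all genes. The count over all genes in that fit at C28P3L7T3 is not given here. DESeq2 also called FSD2 at C28P3L7T3 (0.048).

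CSD1 was 0.81 ± 0.175 higher in N14 at C28 on the log2 scale (edgeR adjusted p = 0.0015), and 0.43 ± 0.141 (0.049) without the N14 library at 949.1 CPM. CSD2 was higher by 0.77 ± 0.180 at C28 (0.0035) and by 0.54 ± 0.180 after the lag (0.037), with libraries of 1524, 1271 and 1343 CPM in N14 against 1085, 886.4 and 865.6 CPM in Col-0 at the latter. MSD1 was higher at C28, C35 and after the lag by 0.29 to 0.32 (0.015 to 0.034). CCS (0.48 ± 0.145, 0.022) and FSD2 (0.41 ± 0.138, 0.040) were higher after the lag. CCS at C28 was 0.43 ± 0.145 higher and just missed the test (0.052). It was called with the replicate block (0.041), the TopHat (0.036), BWA (0.029) and RSEM (0.038) tables and DESeq2 (0.040), and without C28 replicate 2 of Col-0 (0.0048) or replicate 3 of N14 (0.034). In a fit to only the groups compared, none of these calls in the warm groups of CSD1, CSD2, MSD1, CCS and FSD2 was kept (adjusted p 0.11 to 0.53), whereas that fit added the calls after cold given above. Leaving out C28P3L7 replicate 3 of N14 ended all 4 calls of higher levels after the lag (0.055 to 0.13), replicate 3 of Col-0 those of CSD2, CCS and FSD2 (0.050 to 0.23), replicate 2 of Col-0 those of CSD2, FSD2 and MSD1 (0.051 to 0.12), and replicate 2 of N14 those of CCS and FSD2 (0.076 and 0.16). CSD2 also lost its call without replicate 1 of N14 (0.13) and CCS without replicate 1 of Col-0 (0.068). The MSD1 call at C28 was lost without any of 5 of the 6 libraries (0.061 to 0.20, all but N14 replicate 2), and that at C35 without Col-0 replicate 1 (0.11) or N14 replicate 2 (0.086). The ratio of CSD2 to FSD1 levels per kilobase was 2.11 to 6.04 over the Col-0 group means and 8.30 to 23.5 over those of N14, a description that follows from both genes.

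**Figure D4:**
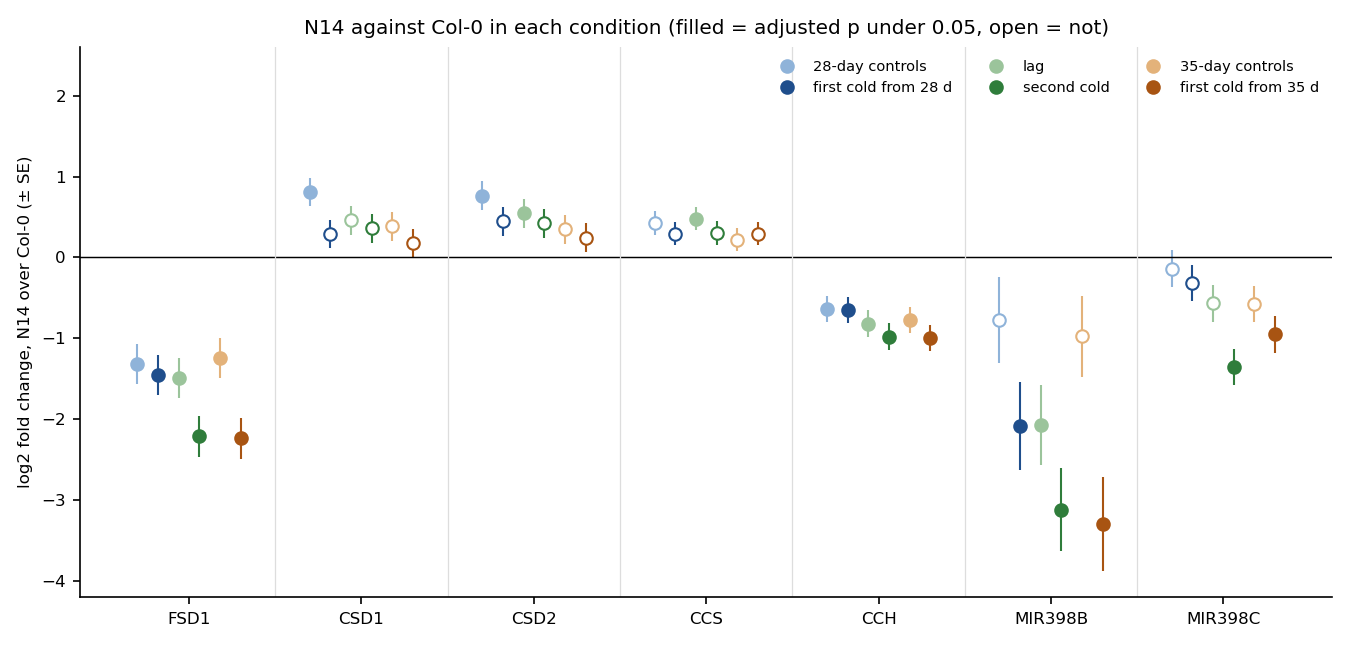
Log2 difference N14 minus Col-0 of FSD1, CSD1, CSD2, CCS, CCH, MIR398B and MIR398C in the 6 conditions, with bars of 1 SE and filled points for an adjusted p under 0.05. FSD1 is between −2.24 and −1.24 and CCH between −0.996 and −0.64 in all 6 conditions.

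Of the 13 copper handling genes tested, 0 to 2 were called higher and 2 lower in N14 in each condition. Over all genes, 4.97% to 8.62% were called higher and 6.09% to 8.48% lower. PAA1, the copper ATPase of the chloroplast envelope, named here after its values were seen, was higher in N14 in 4 of 6 conditions, by 0.45 to 0.54 on the log2 scale. CCH, a cytosolic copper chaperone, was lower in N14 in all 6 conditions, with log2 differences between −0.996 and −0.64 (edgeR adjusted p 5.2e-05 to 0.0079). At C28 it held 194.6 ± 13.5 CPM in Col-0 and 125.3 ± 24.5 CPM in N14 (SD, n = 3). COPT2, a copper uptake transporter induced by copper shortage and named here after its values were seen, had 19 to 82 counts a library in Col-0 (median 36) and 0 to 7 in N14 (median 3), with 5 N14 libraries at 0. It was called lower in N14 in all 6 conditions, and no fold is given at such counts. The precursor MIR398B had 13 to 107 counts in Col-0 and 2 to 22 in N14, and was called lower in N14 in 4 of 6 conditions. MIR398C had 118 to 381 counts in Col-0 and 60 to 132 in N14 and was called lower in 2. These are poly(A) libraries, so mature miR398 was not measured. SPL7, the copper-response regulator, and the transporter COPT1 were called in none of the 6 by edgeR, at an adjusted p of at least 0.10 and 0.21. FRO4, a reductase of copper and iron at the cell surface, was higher in N14 in 2 conditions, at C28 (4.12 ± 1.70 CPM in Col-0 and 12.2 ± 4.11 in N14) and after the lag.

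In the cold, most genes of copper handling fell. Of 16 listed, 13 were tested, and in the first cold at 28 days 2 rose and 8 fell in Col-0 and 1 rose and 8 fell in N14. Between 0 and 1 rose and 7 to 9 fell in the other 4 cold comparisons. Over all genes, 21.6% to 27.6% were called higher and 18.7% to 29.2% lower in the 6. The list's median log2 change at 28 days in Col-0 was −0.57, beside −0.03 for all tested genes. The 4 with the widest mean change were FRO4, CCH, COPT1 and SPL7. FRO4 fell by 1.48 to 3.26, CCH by 0.98 to 1.43 and COPT1 by 1.01 to 1.29 on the log2 scale, each in all 6. SPL7 rose in 5 of 6, from 9.57 ± 2.56 to 20.5 ± 1.59 CPM in the first cold at 28 days in Col-0, while its value in the second cold in Col-0 was 0.46 (edgeR adjusted p = 0.061).

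Of 11 copper proteins and targets of copper microRNAs, 10 were tested. In the 6 comparisons 0 to 2 rose and 3 to 5 fell, with a median of −0.48 at 28 days in Col-0. The shares over all genes were 21.6% to 27.6% higher and 18.7% to 29.2% lower. PETE2, the more abundant plastocyanin, fell in all 6, from 4135 ± 519 to 1108 ± 233 CPM in the first cold at 28 days in Col-0. LAC2, a laccase, stood at 0.525 to 0.725 CPM in the warm groups and 0 to 0.0429 CPM in the cold groups, and was called lower in all 6. The laccase LAC3 rose in 4 of the 6 comparisons from levels of 0.0453 to 0.393 CPM. LAC7 varied from 0.0222 to 1.53 CPM between group means and was called in 1, whose libraries overlapped. COX5B-1, chosen after its values were seen because its miR398 stretch pairs best, was called in none of the 6 by edgeR, with log2 values between −0.17 and 0.01 and an unadjusted p of at least 0.35.

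Of 7 precursors of copper microRNAs, 3 were tested. MIR398B passed in 1 cold comparison, where it fell by 2.09 on the log2 scale (N14 at 35 days), and MIR398C in 2, lower in that comparison (−0.53) and higher in the second cold in Col-0 (0.62). MIR408 passed in none by edgeR, at 1 to 24 counts a library and an unadjusted p of at least 0.18. In the first cold at 28 days 0 of the 3 precursors were called by edgeR (unadjusted p of at least 0.15). Over all genes, 54.7% were called in Col-0 and 56.8% in N14. The precursors' log2 values were −0.04 to 1.08 in Col-0 and −0.88 to 0.97 in N14. The part of miR398 in the changes of the members was not tested.

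Of the proteins that assist these enzymes, 2 of 3 listed were tested. MTM1, a mitochondrial carrier linked to MSD1 activity, rose by 1.07 to 1.64 on the log2 scale in all 6 cold comparisons, from 5.12 ± 0.366 to 15.1 ± 2.1 CPM in the first cold at 28 days in Col-0. CPN20, the co-chaperonin linked to iron superoxide dismutase activity, rose by 0.40 to 0.75 in 5 of 6, and its value in N14 at 28 days was 0.30 (edgeR adjusted p = 0.10). MSD2, the extracellular manganese enzyme, had at most 17 counts in any library and was not tested.

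Of 18 genes that remove hydrogen peroxide, the product of these enzymes, 17 were tested. In each cold comparison 4 to 6 rose and 6 to 8 fell, with a median of −0.29 at 28 days in Col-0. Over all genes, 21.6% to 27.6% were called higher and 18.7% to 29.2% lower in these comparisons. GR1, a glutathione reductase, rose by 1.52 to 1.95 on the log2 scale in all 6. SAPX, a stromal ascorbate peroxidase, rose by 1.42 to 1.76 in all 6. CAT3, a peroxisomal catalase, fell by 1.30 to 2.01 in all 6, from 2039 ± 126 to 505.4 ± 43.4 CPM in Col-0 at 28 days.

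Genes with the most similar pattern were ranked by Pearson correlation of log2 CPM over the 36 libraries, among 11465 genes. The libraries share their groups and their warm or cold state, so these values are a description. CSD3 was closest to NSI (0.984), AT1G51400 (0.982) and ABA4 (0.981). CCS was closest to AT3G10130 (0.961), AT1G12250 (0.954) and AT1G02475 (0.949), and CSD2 to APE1 (0.954), AT1G65720 (0.945) and ATG8D (0.942). CSD1 was closest to ERD14 (0.940), AT5G01800 (0.937) and AT3G57785 (0.935).

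Among the iron enzymes, FSD2 was closest to AT5G08400, AT4G26370 and AT3G27180 (all 0.966), and FSD3 to AT2G31170 (0.973), AT1G56050 (0.965) and AT3G59040 (0.964). FSD1 had lower values, with PLR1 at 0.897, AT3G16660 at 0.896 and SCPL45 at 0.894. MSD1 was closest to TPX1 (0.902), AT1G48750 (0.890) and LSM6A (0.888).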

How the data were processed

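Rosette poly(A) RNA was sequenced in 36 libraries. The authors deposited raw counts per gene from STAR, TopHat, BWA and CLC and expected counts from kallisto, RSEM and Salmon. The submitters' processing notes name STAR 2.5.2a, TopHat2 2.1.1, BWA 0.7.13, HTSeq 0.7.2, SAMtools 1.3, RSEM 1.2.30, Salmon 0.6.0, kallisto 0.42.5 and the build TAIR10. The sources used here give neither the use of strand nor the handling of reads from gene copies. The STAR counts were the main table. Groups came from the labels. edgeR 4.0.16 (R 4.3.3) was run with TMM scaling and filterByExpr by group on all 36 libraries with 12 group means, using the quasi-likelihood test and Benjamini-Hochberg adjustment over 20263 genes. Calls needed an adjusted p below 0.05. The standard error is the log2 change divided by the root of F. CPM are TMM-scaled. Expected counts were rounded; 86.6% of kallisto, 94.2% of RSEM and 86.8% of Salmon values were whole. The BWA table held its block 2 times, and 1 copy was used. Replicates differed by more than sampling noise in all 36 pairs. Replicate numbers come from the titles. All 3 same-numbered library pairs deviated together (correlation over 0.1) in 5 of 6 comparisons of N14 with Col-0 (17 of 18 pairs). Within an accession they did so in 1 of 14 comparisons (22 of 42 pairs). The numbers were therefore taken to pair the libraries in the 6 comparisons between accessions. This pairing did not enter the main test. The replicate block gave each number an effect shared by all 12 groups, not a pairing within each condition. Named genes were all 8 members, up to 4 genes of each other list (3 for hydrogen peroxide removal) with the widest mean change over the 6 cold comparisons, and the 3 most similar genes per member. The members and lists were chosen with earlier results of these data known. Alternatives were RLE scaling, DESeq2 1.42.0, no count filter, a replicate block, fits to only the groups compared, the 6 other tables, and leaving out each library. P-values of the main fit rest on 1 estimate of the spread within groups, shared by all 12 groups of 3 experiments. The spread of the groups compared can differ from it. In the comparisons between accessions these p-values do not use the pairing, and no fit paired within each condition was run.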

Additional observations from a re-analysis of the deposited data

How the results depend on the processing

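No change of a member reversed sign under any alternative where the main or the alternative fit called it. Uncalled values did change sign, such as MSD1 in the first cold at 28 days in N14 (−0.02 to 0.02 over the settings other than leaving out a library). The 6 lower levels of FSD1 in N14 and the cold calls of CSD2, CSD3, CCS, FSD2 and FSD3 were kept throughout. Fits to only the groups compared moved counts of called members most: 0 against 3 for age in Col-0, and, for N14 against Col-0, 1 against 4 at C28, 1 against 5 after the lag, 5 against 1 after the second cold, 1 against 2 at C35 and 3 against 1 at C35P3. Such fits hold fewer libraries to estimate the spread, and the spread differed between groups. The mean chi-square per gene between replicate libraries was 18.9 to 70.3 at C28, 27.6 to 61.6 at C28P3L7 and 24.7 to 101 at C35. It was 19.4 to 44.9 at C28P3L7T3 and 7.89 to 15.6 at C35P3. Without the count filter the count was 1 against 5 after the lag and 1 against 2 at C35; with RLE it was 3 after the lag, and with DESeq2 it was 2 after the second cold. Leaving out 1 library gave 0 to 5 for age in Col-0, 1 to 4 for N14 against Col-0 after the lag, 1 to 3 at C35, 3 to 4 at C28, 5 to 6 in the first cold at 28 days and in the second cold in Col-0, and 6 to 7 in the first cold at 35 days in Col-0 and at 28 days and in the second cold in N14. The cause of these moves was not tested. Over all comparisons 39 of 60 same-numbered library pairs correlated over 0.1 (range −0.356 to 0.649). The replicate block kept 190 of 192 member results. It added calls of FSD3 for age in Col-0 (−0.80, edgeR adjusted p = 0.043) and of CCS for N14 against Col-0 at C28 (0.43, 0.041). The CCS call was in 1 of the 6 comparisons where the numbers pair the libraries.

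Counts over all genes moved by over 1.5 times in the small comparisons. For age in Col-0, 690 genes became 439 without the filter, 1206 with DESeq2 and 22 in a fit to those groups alone (62 to 1479 with 1 library left out). For age in N14, 4 became 19 without the filter, 12 with the block, 144 with DESeq2, 1 with TopHat, and 0 with the other 5 tables and in a fit to those groups alone. After the lag, DESeq2 called 2 genes in Col-0 and 56 in N14 against 0, and leaving out 1 library gave up to 1 and 179. For the second against the first cold, 0 in Col-0 became 1 with DESeq2 and 1 in the groups alone, and 1 in N14 became 5 with the block, 6 with BWA, 0 with RSEM, 217 with DESeq2 and 532 in the groups alone. For N14 against Col-0, the groups alone gave 1268 against 2501 at C28, 1604 against 3178 after the lag, 932 against 2837 at C35 and 5575 against 2856 at C35P3. For the differences between the accessions' cold changes, 61, 54 and 53 became 176, 161 and 160 with DESeq2, and the first 2 became 19 and 8 in the groups alone. Leaving out 1 library moved them by over 1.5 times to 27-40, 22-92 and 17-35. Depth limits MIR408, with 1 to 24 counts a library, and COPT2 in N14, with 0 to 7.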
